A study of Homo sapiens with 8 samples.

Results

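Eph receptors and their ligands, the ephrins, were followed in PNT2, an immortalized cell line from human prostatic epithelium, after depletion of the epithelial splicing factors ESRP1 and ESRP2. A list of 10 genes gave the members, and a member was measured where a gene-level row of the array carried its symbol and no other. This gave 8 of 10 members, out of 14272 genes with such a row: the receptors EPHA2, EPHA4, EPHB3 and EPHB4 and the ligands EFNA1, EFNA5, EFNB1 and EFNB2. EFNA4 shared its row with EFNA3, and EPHB2 was not analysed here. The study put RNA from 8 samples of PNT2 on Affymetrix human exon arrays, 1 array each. In 4 samples, called siESRP, small interfering RNA (siRNA) was directed at both ESRP1 and ESRP2. The 4 control samples, called siGFP, received siRNA against green fluorescent protein. All 8 were the same line in the same medium, but no label states that the 4 samples of a group were grown separately. The p-values therefore reflect sample-to-sample spread that may be purely technical.

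Eph receptors are receptor tyrosine kinases, and ephrins are membrane-bound ligands, so signals pass mainly between touching cells and can run in both directions. Ephrin-A proteins are held by a lipid anchor and mostly bind EphA receptors, whereas ephrin-B proteins cross the membrane and mostly bind EphB receptors, with EPHA4 able to bind both classes. In epithelia the system is known for cell repulsion, sorting at tissue boundaries and the tightening of contacts between neighbours. A gene-level row is 1 value for a whole gene, so exon choice, the process that the ESRPs regulate, was not measured here.

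Promoter sequence is shown first for the members that passed the test of the array data, EFNB1 and EPHA4, and for EFNB2, the partner of EFNB1 in its class. Each line is the 250 bases before an annotated start, 5′ to 3′ on the strand of the gene, from RefSeq on GRCh38.p14. The table held a promoter for all 10 listed members, and EPHA4 and EPHB2 had more than 1 start. The windows are chrX:68828771-68829020 (plus strand) for EFNB1, chr13:106535663-106535912 (minus strand) for EFNB2, and chr2:221574203-221574452 and chr2:221572305-221572554 (both minus strand) for starts 1 and 2 of EPHA4. Capitals mark the GC box GGGCGG, the E-box CAGGTG and the TATA letters TATAAA, each searched on both strands.
EFNB1: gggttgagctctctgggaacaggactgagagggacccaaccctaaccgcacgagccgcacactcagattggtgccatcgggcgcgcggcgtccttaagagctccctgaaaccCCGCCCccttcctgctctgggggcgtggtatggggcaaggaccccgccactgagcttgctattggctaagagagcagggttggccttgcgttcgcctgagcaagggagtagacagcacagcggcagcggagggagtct
EFNB2: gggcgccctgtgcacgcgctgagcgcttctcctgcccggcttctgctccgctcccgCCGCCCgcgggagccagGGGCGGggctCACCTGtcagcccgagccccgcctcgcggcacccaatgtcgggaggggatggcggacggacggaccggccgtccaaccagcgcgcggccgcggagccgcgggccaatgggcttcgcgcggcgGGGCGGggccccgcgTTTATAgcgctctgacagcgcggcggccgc
EPHA4 start 1: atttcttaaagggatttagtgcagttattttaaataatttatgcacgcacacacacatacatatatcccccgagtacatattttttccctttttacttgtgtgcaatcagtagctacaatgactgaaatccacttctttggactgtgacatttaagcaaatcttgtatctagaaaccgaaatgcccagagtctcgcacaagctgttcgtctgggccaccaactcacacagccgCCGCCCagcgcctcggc
EPHA4 start 2: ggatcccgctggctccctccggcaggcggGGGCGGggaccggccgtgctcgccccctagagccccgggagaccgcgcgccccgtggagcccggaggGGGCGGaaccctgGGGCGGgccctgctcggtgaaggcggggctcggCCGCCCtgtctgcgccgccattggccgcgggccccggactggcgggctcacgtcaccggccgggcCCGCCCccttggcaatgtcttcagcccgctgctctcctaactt

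The EFNB1 window held 1 GC box and none of the other motifs. EFNB2 held 3 GC boxes, 1 E-box and 1 TATA match. The EPHA4 starts held 1 and 5 GC boxes. GC content was 63.6% in the EFNB1 window, 78.4% in EFNB2, and 43.2% and 78.0% at the EPHA4 starts, against a median of 58.0% over 35116 RefSeq promoters. The GC box occurred in 42.6% of those promoters, the E-box in 17.5% and the TATA letters in 10.7%. These matches describe the sequence and carry no statement on which proteins bind there.

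Array values are intensities that the authors deposited on a linear scale, here quantile normalized, with values below 0 set to 0 and log2 taken after adding 1. Fold changes and log2 differences are siESRP minus siGFP on that scale. A difference was called when its adjusted p in limma (Benjamini-Hochberg over all 18495 rows) was under 0.05. The deposited array medians were 233 to 286, and Spearman correlations between arrays were 0.987 to 0.995 within groups and 0.978 to 0.985 between them. The knockdown was close to 80% by quantitative RT-PCR, per the labels. The ESRP1 row fell from 2439 ± 169 to 582 ± 66.9 (SD, n = 4 each), and the row shared by ESRP2 and NFATC3 fell from 531 ± 33.4 to 148 ± 27.4. Epithelial genes were bright, with EPCAM at 3386 and KRT8 at 6690 in siGFP. KLK3, the prostate-specific antigen of luminal cells, was at 61.7. Of the prostatic epithelium list 8 of 12 genes had their own row, and its summed intensity was 21924 to 23105 in siGFP and 24618 to 25532 in siESRP. CDH1, KRT15, KRT18 and KRT19 rose, with limma adjusted p of at most 0.00878. The basal keratin KRT14 fell from 765 ± 161 to 367 ± 41.5 (limma adjusted p = 0.00465). Keratin genes have close paralogues, so every keratin row named here is uncertain, whether it rose or fell.

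Of the 8 measured members, 1 was higher and 1 lower in siESRP, and 6 did not pass. EFNB1 rose 1.69-fold and EPHA4 fell 1.30-fold. Over all rows 20.2% of rows were called, 10.9% higher and 9.31% lower, and among rows with a group mean of at least 100, as all 8 members have, 28.4% were called. The 2 of 8 members are 25.0%, which is near that background. Values of siESRP and siGFP were fully separate for 2 of the 8 members, as in 24.6% of all rows. The median log2 difference of the 8 was 0.15, against −0.02 over all rows. In bulk RNA, fewer cells expressing a gene and less RNA per cell cannot be told apart.

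**Figure D1:**
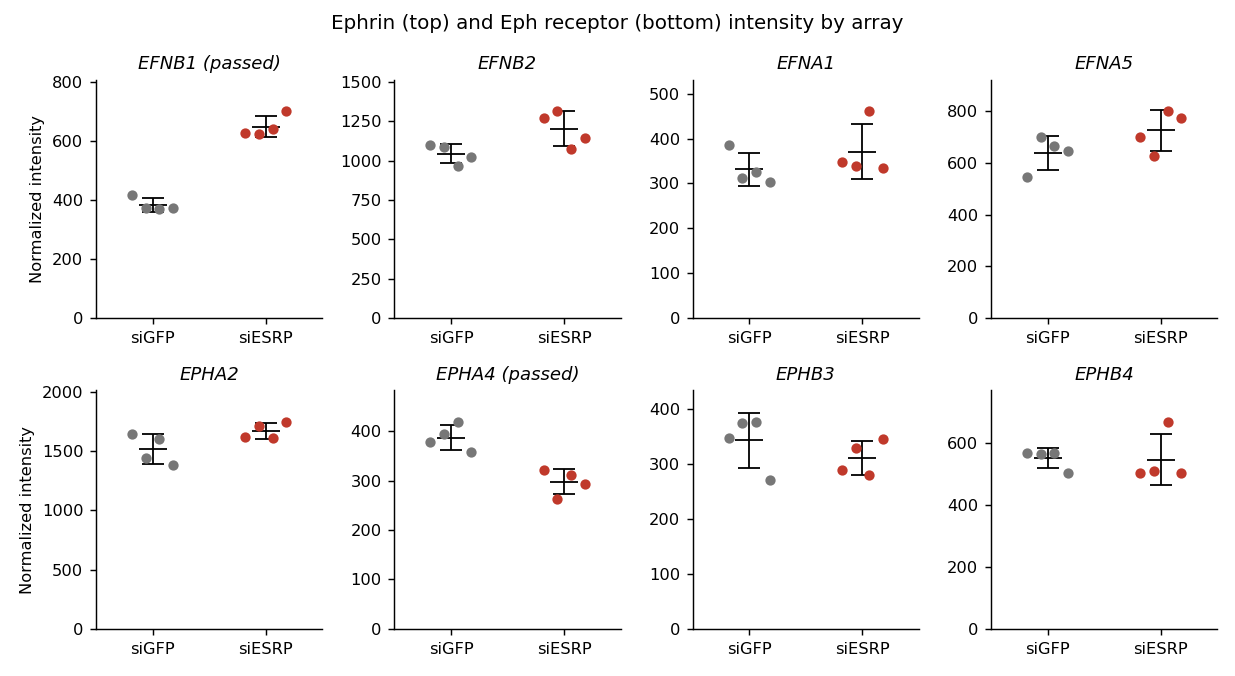
Normalized intensity (linear axis from 0) of each measured member on each array, with siGFP arrays in grey and siESRP arrays in red. Bars are the mean and SD of 4 arrays, and "passed" marks an adjusted p under 0.05. The groups are apart for EFNB1 and EPHA4 and overlap in the other 6 panels.

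Ephrin-B ligands reach through the membrane and signal back into the cell that carries them. EFNB1, the ligand whose loss in humans disturbs boundaries in the developing skull, measured 417, 372, 370 and 371 on siGFP replicates 1 to 4. On the siESRP arrays it measured 626, 622, 641 and 701. All 4 siESRP values lay above all siGFP values, and 3 of the siGFP values were within 2 units of each other, with replicate 1 higher. The mean rose from 383 ± 23.2 to 648 ± 36.6 (SD, n = 4 each), a log2 difference of 0.76 ± 0.06 (SE, limma adjusted p = 0.000412). The 95% interval of the fold was 1.53 to 1.87. The exact two-sided permutation p was 0.0286, the smallest that 4 against 4 arrays can give.

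EFNB2, an ephrin best known from arteries and also made by epithelia, measured 1100, 1083, 968 and 1020 in siGFP and 1273, 1315, 1073 and 1145 in siESRP. The lowest siESRP value, replicate 3, lay below the 2 highest siGFP values, so the groups overlapped. The means were 1043 ± 60.4 and 1202 ± 112 (SD, n = 4 each), with a log2 difference of 0.20 (95% interval 0.01 to 0.39, limma adjusted p = 0.126). The difference did not pass, and of 16 alternatives it passed only with array weights (adjusted p = 0.0460). On the deposited scale it was 0.185 (limma adjusted p = 0.470), and with median scaling 0.168 (limma adjusted p = 0.366).

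Ephrin-A ligands are tethered to the outer face of the membrane. EFNA1, a ligand of EPHA2 that inflammatory signals are known to induce, measured 385, 312, 325 and 302 in siGFP and 348, 340, 462 and 334 in siESRP. Replicate 3 was the high siESRP value, and the other 3 lay inside the siGFP range. The log2 difference was 0.15 (95% interval −0.15 to 0.46, limma adjusted p = 0.465), and 0.04 without siESRP replicate 3 (adjusted p = 0.781). EFNA5, a guidance ligand best known from axon mapping, measured 544, 701, 664 and 644 in siGFP and 699, 628, 801 and 774 in siESRP. The lowest siESRP array lay below 3 of the 4 siGFP arrays, with a log2 difference of 0.18 (95% interval −0.07 to 0.44, limma adjusted p = 0.292). Without siGFP replicate 1, the lowest array, it was 0.11 (adjusted p = 0.518). The row shared by EFNA4 and EFNA3 had means of 257 ± 8.35 and 270 ± 35.6 (SD, n = 4 each), a log2 difference of 0.06 (limma adjusted p = 0.712). EFNA4, EFNA3 and EFNA1 lie next to each other on chromosome 1 in RefSeq, so this row is uncertain between the first 2. EFNA3 also had a row of its own, at 149 ± 12.2 in siGFP and 141 ± 11.5 in siESRP (SD, n = 4 each).

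EphA receptors showed 1 call among the 2 listed. EPHA4, the receptor that binds ligands of both classes, measured 377, 394, 419 and 358 in siGFP and 322, 264, 311 and 294 in siESRP. Every siESRP array was below every siGFP array, with a gap from 358 down to 322. The mean fell from 387 ± 26.1 to 298 ± 25.5 (SD, n = 4 each), a log2 difference of −0.38 ± 0.08 (SE, limma adjusted p = 0.0155), or 1.30-fold. On the deposited scale, without normalization between arrays, the difference was −0.36 and did not pass (adjusted p = 0.152).

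EPHA2, the main Eph receptor of many epithelial lines, measured 1644, 1441, 1604 and 1380 in siGFP and 1624, 1710, 1610 and 1751 in siESRP. On the siGFP side replicate 1 lay inside the siESRP range, and the other 3 lay below it. The means were 1517 ± 127 and 1673 ± 67.7 (SD, n = 4 each), with a log2 difference of 0.14 (95% interval −0.02 to 0.31, limma adjusted p = 0.201).

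Neither measured EphB receptor was called, with unadjusted limma p of 0.319 for EPHB3 and 0.847 for EPHB4. EPHB3, a receptor known for holding epithelial cells in their compartment in the gut, measured 348, 375, 377 and 271 in siGFP and 289, 329, 280 and 345 in siESRP. In siGFP 3 arrays were above the highest siESRP array and replicate 4 was below all of them. The log2 difference was −0.13 (95% interval −0.43 to 0.16, limma adjusted p = 0.519), and −0.24 without siGFP replicate 4 (adjusted p = 0.134). EPHB4, the receptor paired with EFNB2 in blood vessels, measured 567, 565, 566 and 502 in siGFP and 502, 509, 668 and 503 in siESRP. In each group 3 arrays were close together and 1 stood apart, low for siGFP replicate 4 and high for siESRP replicate 3. The log2 difference was −0.02 (95% interval −0.27 to 0.23, limma adjusted p = 0.933), and −0.12 without siESRP replicate 3 (adjusted p = 0.186).

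**Figure D2:**
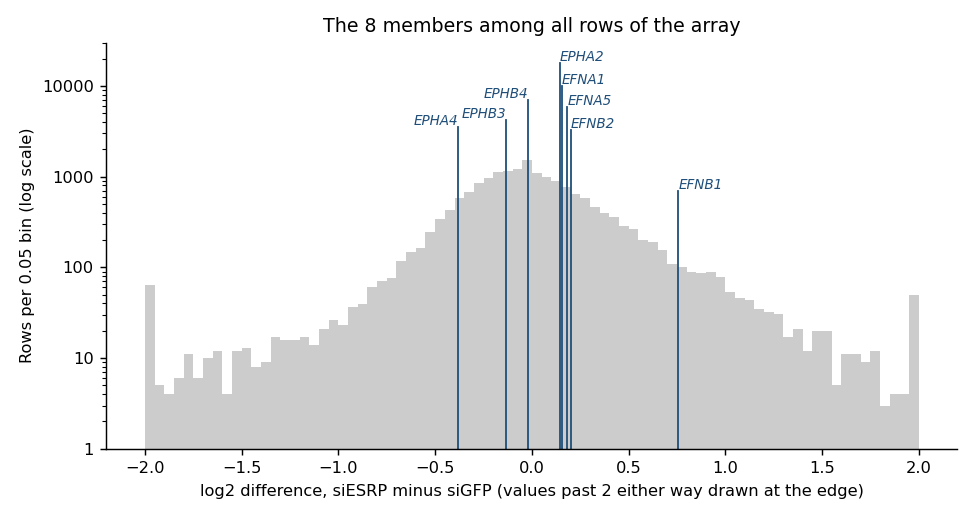
Histogram of the log2 difference (siESRP minus siGFP) of all 18495 rows, in bins of 0.05 with a log count axis, with a line at each measured member; line heights only separate the names. EFNB1 at 0.76 lies in the upper tail and the other 7 members lie between −0.38 and 0.20.

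Whether class partners changed unequally was tested on each array, as the log2 value of one member minus that of the other. Levels of different rows are not comparable, so only the change of this quantity between groups is read. EFNB1 minus EFNB2 was −1.40, −1.54, −1.38 and −1.46 in siGFP and −1.02, −1.08, −0.74 and −0.71 in siESRP. The groups were apart, by 0.56 on the log2 scale (exact two-sided permutation p = 0.0286, adjusted p = 0.0571 over the 4 pairs tested). EPHA2 minus EPHA4 was 2.12, 1.87, 1.93 and 1.94 in siGFP and 2.33, 2.69, 2.37 and 2.57 in siESRP. These groups were also apart, by 0.52 (exact two-sided permutation p = 0.0286, adjusted p = 0.0571). With 0.0286 as the smallest p possible, 2 separate pairs among 4 cannot give an adjusted p under 0.0571, so the adjusted values say nothing on stability. For EPHB3 minus EPHB4 the shift was −0.11 (exact two-sided permutation p = 0.657, adjusted p = 0.876), and for EFNA1 minus EFNA5 it was −0.03 (exact two-sided permutation p = 0.914, adjusted p = 0.914). Of 8 pairs listed by class, 4 had both members measured.

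**Figure D3:**
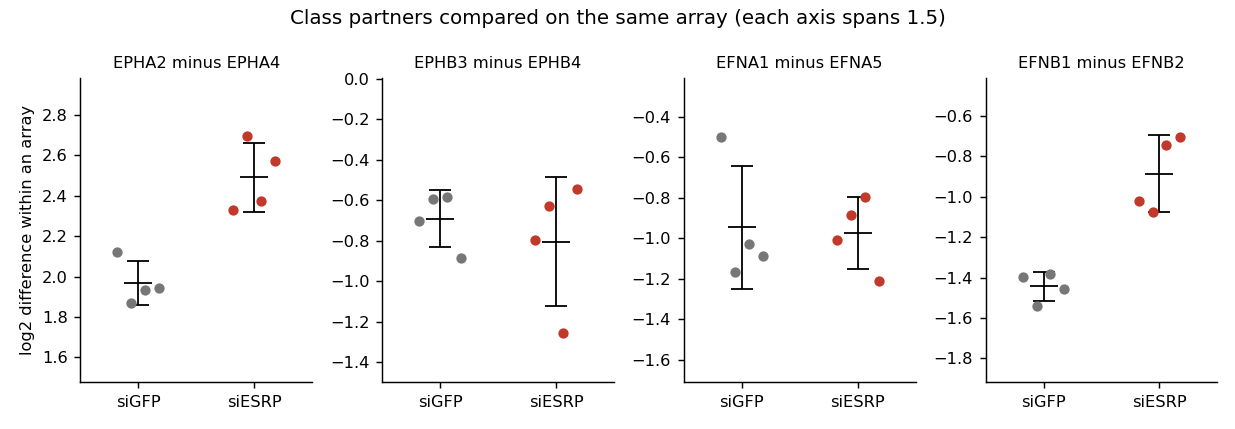
Log2 value of one member minus that of its class partner on each array, with siGFP in grey and siESRP in red; bars are the mean and SD of 4 arrays, and each axis spans 1.5. EPHA2 minus EPHA4 and EFNB1 minus EFNB2 are higher on all 4 siESRP arrays than on any siGFP array, and the other pairs overlap.

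The rest of the family comprised 12 genes, all measured, of which 1 was higher, 0 were lower and 11 did not pass (8.33%, against 20.2% of all rows). At an unadjusted p under 0.05, 3 were higher and 1 was lower. Their median log2 difference was −0.01. The gene called was EPHB6, a receptor without kinase activity. It measured 294, 291, 239 and 261 in siGFP and 318, 310, 355 and 352 in siESRP. The groups were apart by a narrow margin, with a log2 difference of 0.30 ± 0.08 (SE, limma adjusted p = 0.0472). The call ended on leaving out any array other than siGFP replicate 1 (adjusted p of 0.0582, 0.0863 and 0.111 without siGFP replicates 2, 3 and 4, and of 0.0788, 0.0582, 0.0945 and 0.116 without siESRP replicates 1, 2, 3 and 4).

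EFNB3, the remaining ephrin-B gene, was dimmer, at 66.6, 61.6, 69.4 and 76.9 in siGFP and 95.6, 79.9, 152 and 88.9 in siESRP. Its groups were apart, yet the log2 difference of 0.55 did not pass (95% interval 0.08 to 1.02, limma adjusted p = 0.0984). Without siESRP replicate 3, the highest array, it was 0.37 and passed (adjusted p = 0.0477). EPHA1, an epithelial receptor, had means of 333 ± 36.5 and 417 ± 66.1 (SD, n = 4 each) and overlapping groups (log2 difference 0.32, limma adjusted p = 0.143).

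EPHA8, EFNA2 and EFNA3 had log2 differences of −0.06, 0.10 and −0.08 and did not pass. The brighter of 2 EPHA10 rows was at 463 ± 77.1 and 468 ± 108 (SD, n = 4 each), with a log2 difference of 0.00, and the dimmer row was under 50 in both groups. EPHA3, EPHA5, EPHA6, EPHA7 and EPHB1, which are prominent in the nervous system, had both group means under 50. Levels that low may not differ from background, which was not estimated. Among these genes EPHB1 was at 27.7 ± 4.41 and 20.8 ± 3.64 (SD, n = 4 each), without overlap, and did not pass (limma adjusted p = 0.126). With the 8 members, 3 ephrin-B genes thus had log2 differences of 0.76, 0.20 and 0.55, of which EFNB1 alone passed.

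**Figure D4:**
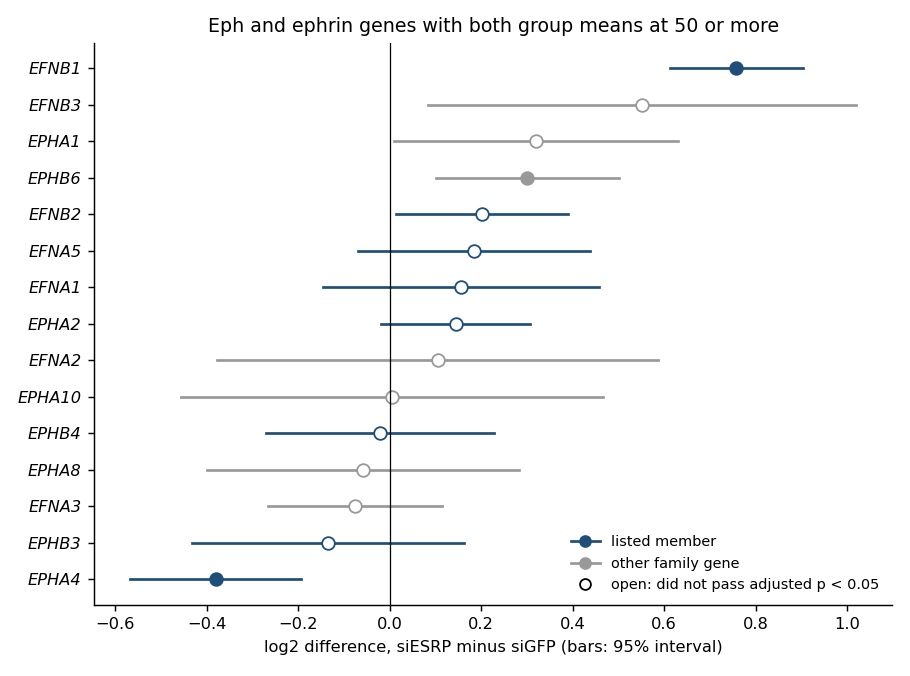
Log2 difference (siESRP minus siGFP) with its 95% interval for Eph and ephrin genes whose group means are both at 50 or more; listed members are blue, other family genes grey, and open circles did not pass. EFNB1 at 0.76 and EPHA4 at −0.38 are the ends of the order, and EPHB6 at 0.30 is the other filled point.

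Genes reported to act next to Eph receptors or ephrins were taken from a list of 57, of which 43 had a row of their own. Of these 43, 9 were higher and 7 lower in siESRP and 27 did not pass, so 37.2% were called, against 20.2% of all rows and 28.4% of rows with a group mean of at least 100. The median log2 difference was −0.01. The split depended on the threshold and the scaling: 5 were higher and 0 lower at an adjusted p under 0.01, 3 and 0 at 1.5-fold or more, and 4 and 1 on the deposited scale. Of 17 receptor-proximal adaptors and kinases 5 rose and 3 fell, and of 6 phosphatases 1 rose and 2 fell.

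The largest difference was in DOCK4, an activator of Rac1 reported downstream of EPHA2, which rose 2.33-fold from 152 ± 22.5 to 353 ± 17.6 (SD, n = 4 each, limma adjusted p = 0.000574). TIAM1, another Rac activator, rose 1.47-fold (limma adjusted p = 0.00204). PTPN13, a phosphatase that acts on ephrin-B tails, rose 1.56-fold from 417 ± 22.6 to 653 ± 56.0. PIK3R1, the regulatory subunit of phosphatidylinositol 3-kinase, rose 1.59-fold, and FYN, a Src family kinase, rose 1.31-fold. RHBDL2, a membrane protease reported to cut ephrin-B3, rose 1.43-fold from 369 ± 40.5 to 527 ± 49.6. Each of these 6 passed, with limma adjusted p of at most 0.0127.

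CHN1, the Rac-inactivating protein alpha-chimaerin that works below EPHA4 in axons, fell 1.28-fold from 1014 ± 73.8 to 790 ± 55.7 (SD, n = 4 each, limma adjusted p = 0.0156). TLE4, a co-repressor reported to bind ephrin-B1, fell 1.44-fold from 514 ± 83.6 to 352 ± 21.7. The kinases ABL2 and ABL1 fell 1.33-fold and 1.12-fold, and the phosphatase ACP1 fell 1.34-fold. GRB10, an adaptor, fell from 56.4 ± 5.38 to 41.2 ± 3.40, near the level of 50 under which no fold is given. All 6 passed, with limma adjusted p of at most 0.0428. The other called genes, STAT3, LYN and SHC1 higher and PTPN1 lower, are named to complete the count.

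**Figure D5:**
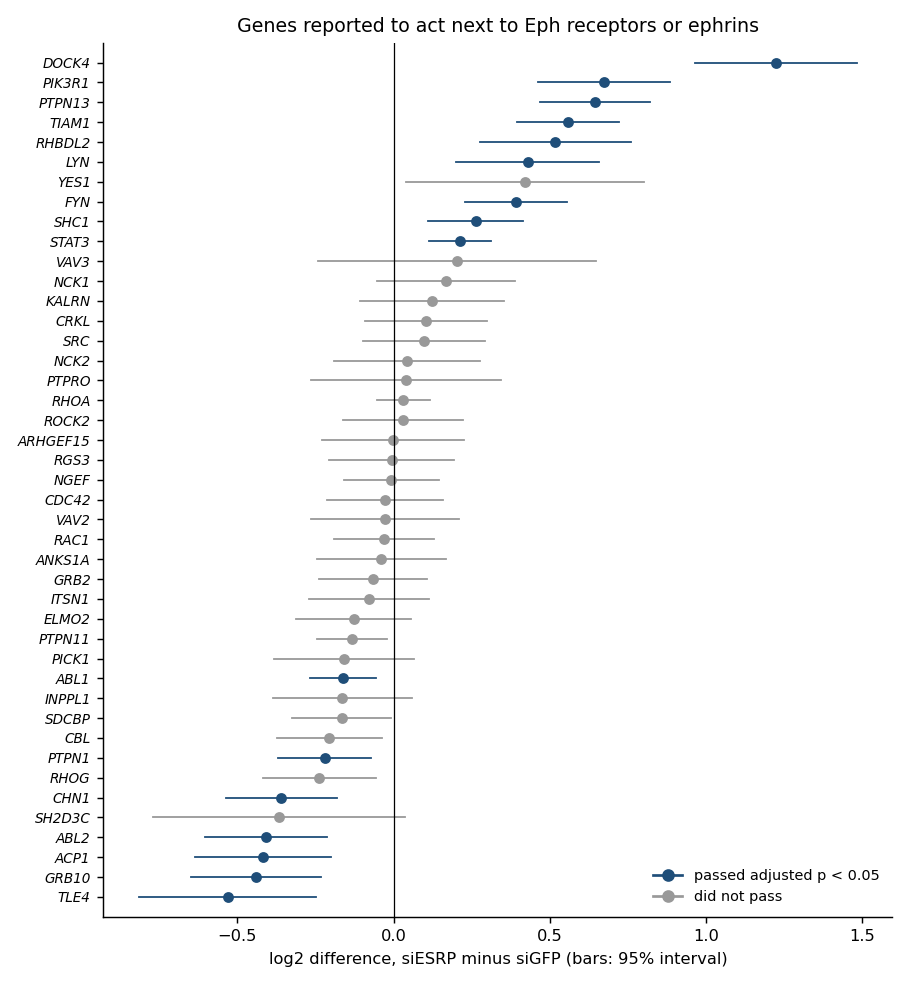
Log2 difference (siESRP minus siGFP) with its 95% interval for the 43 measured genes reported to act next to Eph receptors or ephrins; blue passed an adjusted p under 0.05 and grey did not. The 9 higher genes are led by DOCK4 at 1.22, and the lowest of the 7 lower genes is TLE4 at −0.53.

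The genes whose pattern over the 8 arrays lay closest to that of EFNB1 were DAPK2, NUP62CL and TP53I3. Likeness was the Euclidean distance between 8 log2 values, centred on the siGFP mean. It was taken over 9640 rows with 1 gene symbol, other than the members, and a group mean of at least 100. The distances were 0.053, 0.134 and 0.181. DAPK2, a calmodulin-regulated kinase, measured 133, 117, 122 and 120 in siGFP and 203, 198, 204 and 224 in siESRP, so siGFP replicate 1 and siESRP replicate 4 were the highest arrays of their groups, as for EFNB1. NUP62CL had a log2 difference of 0.73, and TP53I3, an oxidoreductase, also of 0.73. Closest to EPHA4 were CDC25A, a cell-cycle phosphatase, VPS37A, a sorting complex subunit, and TNPO3, a nuclear import receptor, at distances of 0.146, 0.149 and 0.152. Their log2 differences were −0.35, −0.34 and −0.42. These genes were picked on the same contrast, and their likeness was not tested.

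Genes that mark other cell types were mixed in level, and each list is given whole. Of 6 endothelial genes, a type that uses EFNB2 and EPHB4, 4 (PECAM1, KDR, TEK and TIE1) were under 50 in both groups, and the summed level was 380 to 446 in siGFP and 452 to 534 in siESRP. CDH5 rose from 241 to 324 (limma adjusted p = 0.0333), and TEK fell from 30.2 to 22.1 (limma adjusted p = 0.0118). Of 5 measured leukocyte genes PTPRC, CD3E and LCP1 were under 50, and the sum was 652 to 746 in siGFP and 821 to 1041 in siESRP. CD68, a lysosomal protein not limited to leukocytes, rose from 551 to 747 (limma adjusted p = 0.0141) and was the 1 called gene. For 7 fibroblast and smooth muscle genes the sum was 515 to 595 in siGFP and 420 to 492 in siESRP, with DCN and LUM under 50 and COL1A1, the 1 called gene, down from 252 to 182 (limma adjusted p = 0.00649). For 4 neural genes it was 175 to 213 and 228 to 277, with NEFL and SNAP25 under 50. MAP2 rose from 94.6 to 167 (limma adjusted p = 0.0141), while the log2 differences of the other 3 were negative and did not pass. These sums did not overlap between groups, but each leans on the brightest gene of its list (CDH5, CD68, COL1A1 and MAP2), which was called. A separate sum is therefore not a shift of the whole list. The part of these genes in the results for EFNB1 and EPHA4 was not tested.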

How the data were processed

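RNA of 8 PNT2 samples, 1 µg each per the labels' protocols, was measured on exon arrays and grouped by sample title. The authors deposited linear intensity values, 1 per gene-level row and array; how these were made, and the genome build, is not given in the sources used here. Platform annotation gave 14579 rows 1 gene symbol (updated against RefSeq of GRCh38.p14), 2847 several and 1069 none.

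Quantile normalization of the linear values was followed by a floor at 0 (2.70% to 4.02% of values per array were below it) and log2(value + 1). The fit was limma 3.58.1 (R 4.3.3, lmFit and eBayes, two-sided) without covariates. No fold is given where a group mean is under 50. A gene with several rows was counted by its brightest. The number of arrays limits the precision. On simulated data over 18495 rows, the fit recovered 52 of 100 changes of 1.5-fold and 89 of 100 of 2-fold, and called 9 unchanged rows. Only these rows were changed, all with a siGFP mean of at least 100, and the noise was normal on the linear scale. The real data had 20.2% of rows called, a larger share than was changed, so this recovery is not the sensitivity for the members.

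Named were the members, the other family genes, up to 6 called signalling genes per direction by smallest p, and the 3 genes closest to the called member of smallest p in each direction. Members and lists were chosen with earlier results of these data known. Alternatives were 2 other scalings, a filter on dim rows, a pseudocount or a floor of 16, a trended robust eBayes, array weights, a replicate block, stricter thresholds and leaving out each array. Settings for EPHB6, EFNB3 and ESRP1 and the share among rows of at least 100 were added after the data were seen.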

Additional observations from a re-analysis of the deposited data

Results flagged for a closer look

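Taking the 4 arrays of a group together, the highest or lowest was separated from the rest by more than Dixon's 95% limit in 4 of 48 groups of values (the Eph and ephrin rows and the ESRP rows), where chance gives about 1 in 20, or 2.4. For EPHB4 in siGFP, replicate 4 was low (gap ratio 0.981). For EPHB4 in siESRP, replicate 3 was high (0.960). For EFNA1 in siESRP, replicate 3 was also high (0.892). For EFNB1 in siGFP, replicate 1 was high (0.967); without it the log2 difference of EFNB1 was 0.79 (limma adjusted p = 0.00100).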

How the results depend on the processing

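EFNB1 stayed higher and called in all 16 alternatives run for it, with log2 differences from 0.72 to 0.79 and adjusted p from 9.00e-05 to 0.0173. EPHA4 stayed lower in its 16, and its call ended on the deposited scale (−0.36, adjusted p = 0.152) and with the replicate number as a block (−0.38, adjusted p = 0.0579). EFNB2 passed only with array weights (0.25, adjusted p = 0.0460) among its 16. Leaving out 1 array gave EFNB1 0.72 to 0.79, EPHA4 −0.42 to −0.32, EPHA2 0.10 to 0.18, EPHB3 −0.24 to −0.08, EFNA1 0.04 to 0.23, EFNA5 0.11 to 0.25 and EFNB2 0.16 to 0.25. EPHB4 ran from −0.12 to 0.01 and turned positive without siESRP replicates 1, 2 or 4 (0.0146, 0.0087 and 0.0141), uncalled throughout. Among pairs, EPHB3 minus EPHB4 ran from −0.20 to 0.03, turning without siESRP replicate 3 (0.0343), and EFNA1 minus EFNA5 from −0.10 to 0.12, turning without siGFP replicate 1 (0.1208) or siESRP replicate 4 (0.0486).

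At adjusted p under 0.01, at least 1.5-fold, on the deposited scale and with the block, in that order, the count of members was 1, 1, 1 and 1, each time EFNB1, against 2 as reported. Signalling genes numbered 5, 3, 5 and 7 (5, 3, 4 and 6 of them higher) against 16 (9 higher), and all rows 1808, 1309, 1673 and 2292 against 3729. The other family genes called were 0, 0, 0 and 0 against 1, 0 with a trended robust eBayes and 2 with the dimmest 25% of rows left out. Leaving out 1 array gave 2 to 2 members, 0 to 1 other family genes, 11 to 15 signalling genes and 2719 to 3793 rows. EPHB6 also lost its call on the deposited scale (adjusted p = 0.153), with the block (0.166) and with a trended robust eBayes (0.0559). Without the dimmest rows EFNB3 passed (adjusted p = 0.0458).

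Same-numbered arrays of the groups correlated at 0.158, 0.068, −0.284 and −0.001 in their deviations from the group means over 12078 rows. Of the siESRP arrays, 0 of 4 were closest to their own number. These values do not show that the numbers pair the samples, and they cannot exclude it. The block is therefore not read as a paired result. The median log2 difference of all rows was −0.02 as reported, −0.10 for arrays as deposited and −0.11 after scaling to a common median.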
